A study of Homo sapiens with 43 samples.

Results

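CDK9 is the catalytic kinase of P-TEFb, the complex that phosphorylates RNA polymerase II and its pausing factors and so lets paused polymerase move into the gene body. In untreated cells it is known mostly from promoters and enhancers that are being transcribed. CDK-TCIP1 is a bivalent compound that binds transcriptional kinases on one side and BCL6 on the other. BCL6 is the repressor of the germinal-centre B cell, and it recruits corepressors to its sites in many diffuse large B-cell lymphomas (DLBCL). The regions described here are those where 1 of 2 CDK9 antibodies, CST2316S, found a new CDK9 peak after the compound while the other, ab239364, found none in any list.

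There were 1452 such regions, called the CST2316S-only gains below, among 17265 regions made by merging all peaks of 8 CDK9 lists of SUDHL5, a DLBCL cell line. The 8 lists were 2 replicates each of cells treated with 30 nM CDK-TCIP1 for 2 h and of cells in 0.1% DMSO for 2 h, for each antibody. A region was kept when both treated CST2316S lists had a peak in it and when the 2 CST2316S DMSO lists and all 4 ab239364 lists had none. The regions were thus chosen by presence and absence of peaks in these 8 lists, and the values from these lists below are a description without a test. Of all regions, 32.8% were gained with CST2316S by the same count (both treated lists, no DMSO list) and 20.2% with ab239364, and nothing is read from these shares. The regions gained with both antibodies and with a peak in no DMSO list (1976) and those gained with ab239364 with no CST2316S peak (722) serve for comparison.

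The other lists of the study did not enter the rule. They comprised CDK9 by CST2316S in KARPAS422, a second DLBCL line, with 30 nM CDK-TCIP1 for 2 h or DMSO for 2 h, 2 replicates each. In SUDHL5 they comprised polymerase phosphorylated at serine 5 of its C-terminal repeat (Ser5P, a mark of initiated polymerase), polymerase phosphorylated at serine 2 (Ser2P, a mark of elongating polymerase) and total polymerase (Pol II), each with 30 nM CDK-TCIP1 for 2 h and 4 h and with DMSO for 4 h only. Ser5P and Ser2P had 2 lists per condition and Pol II had 3. All samples share the culture medium and the solvent, each line is a single established line, and the labels do not say whether replicates came from separate cultures, so the spread between lists may be technical. The 33 lists held between 138 and 28951 peaks. Treated CST2316S lists of SUDHL5 held 10005 and 9761 peaks, against 1611 and 1264 in DMSO, and treated ab239364 lists held 9262 and 11148, against 915 and 3508 in DMSO. Read depth is unknown, and whether it moved with list length could not be read from the lists. Ser5P in DMSO marked the gene ends of 10 of 10 B-cell marker genes in both lists, of 2 of 8 T-cell genes (CD3E and LCK), of 2 of 7 myeloid genes (CD68 and SPI1) and of 0 of 6 genes of other tissues.

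Promoters were few among the CST2316S-only gains. RefSeq promoter windows, which run from 250 bases before to 50 bases after a start, were overlapped by 47 of the 1452 regions (3.24%), against 23.2% of the gains of both antibodies and 59.1% of the ab239364-only gains. The following windows on GRCh38.p14 (the build of hg38), each printed on its own strand from 5′ to 3′ with CpG dinucleotides in capitals, belong to the 6 best-ranked regions that contain a whole window. They are shown so that the CpG counts given next can be read on the sequences. HDAC9 (chr7:18509020-18509319, plus strand, an internal start of the gene) encodes a class IIa histone deacetylase that works with BCL6 as a corepressor. MS4A7 (chr11:60378282-60378581, plus strand) encodes a membrane protein of the CD20 family. NRL (chr14:24095081-24095380, minus strand) encodes a transcription factor known from photoreceptors, and the region also overlaps PCK2. IL23A (chr12:56338634-56338933, plus strand) encodes a subunit of interleukin 23. ARHGDIB (chr12:14948847-14949146, minus strand) encodes an inhibitor of small GTPase cycling in blood cells, and MYL12BP2 (chr4:184314280-184314579, minus strand) is a pseudogene. The last 3 lines are the windows of PRH1 (chr12:11171562-11171861, minus strand), SLC2A5 (chr1:9069586-9069885, minus strand), which encodes a fructose transporter, and FAM117A (chr17:49747179-49747478, minus strand), from the 3 best-ranked regions of that kind gained with both antibodies.
HDAC9: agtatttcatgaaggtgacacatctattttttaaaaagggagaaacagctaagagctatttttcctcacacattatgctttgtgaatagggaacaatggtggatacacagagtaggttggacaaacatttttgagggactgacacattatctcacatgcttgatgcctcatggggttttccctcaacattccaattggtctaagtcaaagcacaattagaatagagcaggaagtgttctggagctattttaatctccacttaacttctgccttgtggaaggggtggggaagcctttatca
MS4A7: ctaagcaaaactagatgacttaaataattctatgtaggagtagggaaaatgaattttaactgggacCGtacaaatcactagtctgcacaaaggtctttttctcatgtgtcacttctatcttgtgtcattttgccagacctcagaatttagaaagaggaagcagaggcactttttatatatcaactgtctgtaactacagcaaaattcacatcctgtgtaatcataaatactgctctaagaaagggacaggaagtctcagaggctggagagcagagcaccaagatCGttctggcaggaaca
NRL: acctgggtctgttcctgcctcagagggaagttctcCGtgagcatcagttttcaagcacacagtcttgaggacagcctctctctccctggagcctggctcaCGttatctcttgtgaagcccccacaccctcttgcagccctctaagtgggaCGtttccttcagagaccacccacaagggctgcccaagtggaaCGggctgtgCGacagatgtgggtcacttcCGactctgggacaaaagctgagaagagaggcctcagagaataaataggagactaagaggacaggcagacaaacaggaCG
IL23A: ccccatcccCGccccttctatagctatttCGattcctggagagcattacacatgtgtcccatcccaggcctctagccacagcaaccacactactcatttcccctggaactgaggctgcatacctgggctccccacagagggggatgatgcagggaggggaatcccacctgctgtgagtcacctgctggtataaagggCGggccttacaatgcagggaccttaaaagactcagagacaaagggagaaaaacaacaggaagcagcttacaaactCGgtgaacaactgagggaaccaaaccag
ARHGDIB: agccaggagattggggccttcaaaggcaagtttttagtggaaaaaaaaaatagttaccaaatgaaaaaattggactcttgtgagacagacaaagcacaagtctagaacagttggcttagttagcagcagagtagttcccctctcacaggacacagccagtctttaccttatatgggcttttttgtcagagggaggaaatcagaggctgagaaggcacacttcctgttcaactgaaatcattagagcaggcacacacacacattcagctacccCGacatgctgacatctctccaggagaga
MYL12BP2: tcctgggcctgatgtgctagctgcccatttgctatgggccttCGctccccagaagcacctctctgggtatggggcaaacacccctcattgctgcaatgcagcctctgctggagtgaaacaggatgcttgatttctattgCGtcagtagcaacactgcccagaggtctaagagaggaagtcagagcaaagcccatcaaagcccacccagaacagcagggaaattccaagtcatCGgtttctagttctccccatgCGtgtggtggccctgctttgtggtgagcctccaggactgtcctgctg
PRH1: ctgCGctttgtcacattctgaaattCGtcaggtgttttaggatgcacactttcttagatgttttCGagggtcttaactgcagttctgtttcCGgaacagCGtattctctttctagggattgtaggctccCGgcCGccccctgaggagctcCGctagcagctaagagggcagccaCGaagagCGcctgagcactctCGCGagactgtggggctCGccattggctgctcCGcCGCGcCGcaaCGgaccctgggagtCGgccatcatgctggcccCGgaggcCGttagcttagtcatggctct
SLC2A5: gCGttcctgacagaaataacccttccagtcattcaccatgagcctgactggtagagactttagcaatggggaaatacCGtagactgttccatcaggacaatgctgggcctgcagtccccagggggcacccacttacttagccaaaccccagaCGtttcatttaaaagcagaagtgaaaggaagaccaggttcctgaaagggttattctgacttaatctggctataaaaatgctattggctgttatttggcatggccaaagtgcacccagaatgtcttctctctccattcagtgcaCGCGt
FAM117A: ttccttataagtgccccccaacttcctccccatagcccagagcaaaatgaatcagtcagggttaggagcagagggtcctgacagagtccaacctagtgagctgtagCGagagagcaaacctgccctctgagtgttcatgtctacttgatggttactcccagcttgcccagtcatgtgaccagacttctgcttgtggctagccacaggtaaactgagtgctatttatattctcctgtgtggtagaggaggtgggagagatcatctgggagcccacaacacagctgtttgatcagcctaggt

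The HDAC9 window held 0 CpG, the windows of MS4A7, NRL, IL23A, ARHGDIB and MYL12BP2 held 2, 7, 4, 1 and 4. Those of PRH1, SLC2A5 and FAM117A, gained with both antibodies, held 21, 5 and 1, so that single windows of both sets overlap in CpG content. Over all 52 windows overlapped by CST2316S-only gains (47 gene symbols), the median was 5 CpG per 300 bp. It was 23 over 677 windows overlapped by gains of both antibodies, 27 over 632 windows of ab239364-only gains and 14 over all 34789 windows. Windows with under 10 CpG made up 69.2% (36 of 52) of those of the CST2316S-only gains, against 22.5% for both antibodies, 2.53% for ab239364 only and 43.7% of all windows. Their median GC content was 48.7%, against 62.3% for both antibodies.

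**Figure D1:**
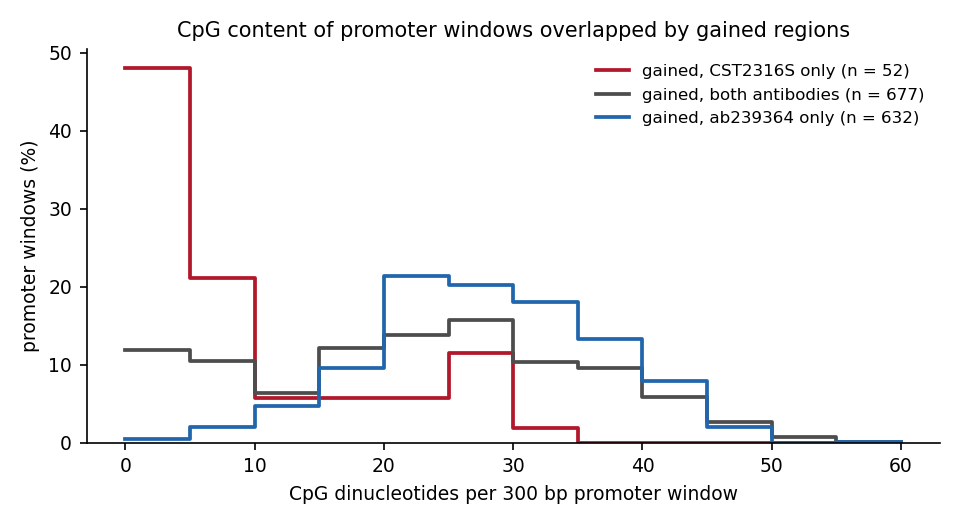
Share of promoter windows (y axis, percent) by the number of CpG dinucleotides per 300 bp (x axis), for windows overlapped by regions gained with CST2316S only, with both antibodies and with ab239364 only. The CST2316S-only curve lies mostly under 10 CpG, with a median of 5, against medians of 23 and 27.

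Short motifs were searched on both strands of the same windows. The GC box GGGCGG stood in 15.4% of the windows of CST2316S-only gains, against 57.5% for both antibodies, 68.5% for ab239364 only and 44.9% of all windows. The ETS word CCGGAAG stood in 5.77% of them, against 14.8%, 31.6% and 10.2% in the same order. The BCL6 core TTCCNNGAA, whose matches are all also matches of the wider STAT pattern, stood in 4 of 52 windows (7.69%), against 6.20%, 4.27% and 4.45%. The TATA box TATAAA stood in 11.5% of them, against 7.53%, 3.64% and 11.6%. The E-box CACGTG stood in 5 windows, the NRF1 core GCGCATGC in 2, the octamer ATGCAAAT and the CRE TGACGTCA in 1 each and the NF-kB part GGGACTTT in 0. With so few windows, 1 window moves a share by 1.92 points, and a match is only a run of letters.

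Most CST2316S-only gains lay away from gene ends. Of the 1452 regions, 83 lay within 1 kb of either end of a protein-coding gene (5.72%, exact 95% binomial interval 4.58% to 7.04%, counting error only), against 33.0% of all 17265 regions. The share was 10.2% with a window of 2.5 kb and 13.5% of the 156 regions that met the rule when each list was limited to its 915 best peaks. Another 917 (63.2%) lay inside a gene further from its ends, and 452 (31.1%) lay outside genes. Among the gains of both antibodies 25.6% lay at gene ends, 42.97% inside genes and 31.5% outside, and among the ab239364-only gains the shares were 77.7%, 16.3% and 5.96%. The median distance to the nearest coding start was 41.1 kb, against 24.2 kb for both antibodies and 16.5 kb for all regions. Regions of chromosome 8 have no such distance and are left out of these medians.

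**Figure D2:**
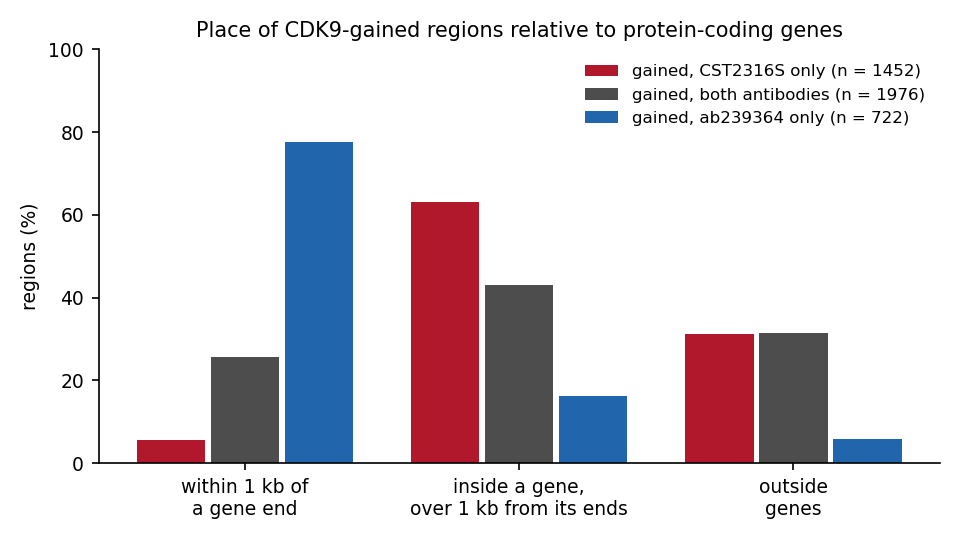
Share of regions (y axis, percent) within 1 kb of a gene end, inside a gene and outside genes, for the 3 kinds of CDK9-gained regions. CST2316S-only gains have the lowest bar at gene ends (5.72%) and the highest inside genes (63.2%).

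The regions were narrower and weaker than the gains of both antibodies. Their median width, from merged CST2316S peaks alone, was 972.5 bp (quartiles 701 and 1347 bp), against 2026.5 bp for gains that also merge ab239364 peaks. Their median fold enrichment, the authors' own value of each peak over background, was 4.12 and 3.82 in the 2 treated lists, against 6.60 and 5.75. Ranked by the authors' q value, the best of them stood at 1028 and 1061 in the treated lists, and their median ranks were 6244.5 and 6052, against 2619 and 2730. The rule asks for peaks of both treated lists in 1 merged region, so their summits could not lie far apart. The median between summits was 94 bp, with 73.6% within 250 bp, against 71.5 bp and 76.8% for the wider gains of both antibodies. Of the CST2316S-only gains, 1383 had a single peak in each treated list. Across the 1452 regions the log2 fold of replicate 2 followed that of replicate 1 with a Pearson correlation of 0.457 and a Spearman correlation of 0.413, as a description of regions that share 2 libraries.

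Values on either side of the rule's limits show where it falls. Gains of CST2316S with a peak in 1 treated ab239364 list and no ab239364 DMSO peak, just outside the rule, numbered 1593 and had median folds of 4.74 and 4.73, a median width of 1356 bp and 10.7% at gene ends. Regions with a peak in 1 treated CST2316S list and no other list, outside it on the other side, numbered 3504 and had median folds of 3.56 and 3.32 and 6.59% at gene ends. A further 22 regions had a peak in both treated and in 1 DMSO CST2316S list and no ab239364 peak, and 8 had a peak in all 4 CST2316S lists and no ab239364 peak. Gains of CST2316S that had an ab239364 peak in DMSO numbered 645, and 62.0% of those lay at gene ends.

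The difference in place was also present between regions of like rank. With mean ranks of 2000 to 4000 in the treated CST2316S lists, 4.24% of 165 CST2316S-only gains lay at gene ends, against 21.8% of 703 gains of both antibodies. At ranks of 4000 to 6000 the shares were 5.47% of 457 and 33.8% of 379, and at 6000 to 8000 they were 6.57% of 609 and 55.1% of 187. Over 8000 they were 4.74% of 211 and 53.5% of 43. Among the CST2316S-only gains the share at gene ends thus stayed between 4.24% and 6.57% over the 4 bands from 2000 on, while among the gains of both antibodies it was 55.1% and 53.5% in the 2 weakest bands. At ranks up to 2000, where there were 10 CST2316S-only gains and 664 of both antibodies, the shares were closest, at 10.0% (1 region) and 14.8%. With the gene-end window read from 250 bp either side of the summits, which gives all regions 1 width, the shares were 4.89% and 20.6%.

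**Figure D3:**
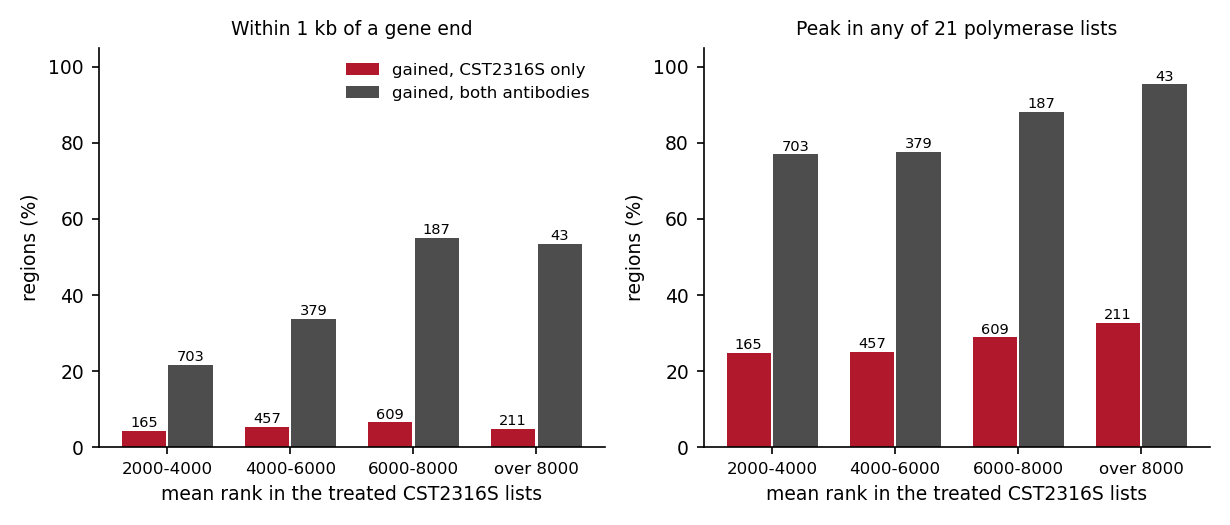
Share of regions (y axes, percent) at gene ends and with a peak in any of 21 polymerase lists, by mean rank in the treated CST2316S lists (x axes), with the number of regions above each bar. The band up to rank 2000, with 10 CST2316S-only gains, is not drawn. In all 4 bands drawn the CST2316S-only bar is the lower of the pair in both panels.

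Other CDK9 peaks lay nearby in many cases. The nearest peak of a treated ab239364 list was a median of 4.38 kb away, and 66.5% of the CST2316S-only gains had one within 10 kb and 242 (16.7%) within 1 kb. The gains of both antibodies had their nearest further treated ab239364 peak, outside the region itself, at a median of 8.62 kb, and all regions at 12.4 kb. The next region of the same kind was within 10 kb for 430 CST2316S-only gains (29.6%), against 424 gains of both antibodies (21.5%). A CST2316S peak of DMSO cells was a median of 91.2 kb away, against 227.5 kb for the gains of both antibodies.

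By chromosome the gene-dense chromosome 19 held 7 of the regions (0.482%), against 53 gains of both antibodies (2.68%), 59 ab239364-only gains (8.17%) and 3.85% of all regions. Chromosome 13 held 59 (4.06%), against 59 (2.99%), 8 (1.11%) and 3.00% of all regions. Chromosome 17 held 28 (1.93%), against 79 (4.00%), 46 (6.37%) and 4.29% of all regions. The window of 1 Mb with the most was chr3:188000001-189000000, with 18 CST2316S-only gains and 14 gains of both antibodies among 81 regions. It was followed by chr6:90000001-91000000, with 11 and 4 among 36 regions.

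The 977 regions that overlapped a coding gene fell in 594 genes, of which 399 held 1, 147 held 2 or 3 and 48 held at least 4. The 16 genes with at least 6 are long, and the count of regions in a gene is not corrected for its length. LPP, a gene for a focal-adhesion LIM protein that lies beside BCL6 on chromosome 3, held 13 CST2316S-only gains and 12 gains of both antibodies over 737.7 kb. EFNA5, the gene of a membrane-bound ephrin, held 9 and 2. BACH2, a transcription factor of germinal-centre entry, held 8 and 4. AUTS2, PARD3 (a polarity protein), SOX5, TBC1D4 (a Rab GTPase-activating protein), TCF4 (an E protein of B cells) and VAV3 (a guanine nucleotide exchange factor) held 7 each, beside 5, 1, 3, 0, 2 and 4 gains of both antibodies. CAMK2D, DMD, EBF1, FOXP1, MCTP2, NCOA2 and TOX held 6 each, and of these EBF1 and FOXP1, both transcription factors of the B lineage, held 7 and 8 gains of both antibodies. Only 1 of the regions in these 16 genes, in TBC1D4, lay at a gene end.

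**Figure D4:**
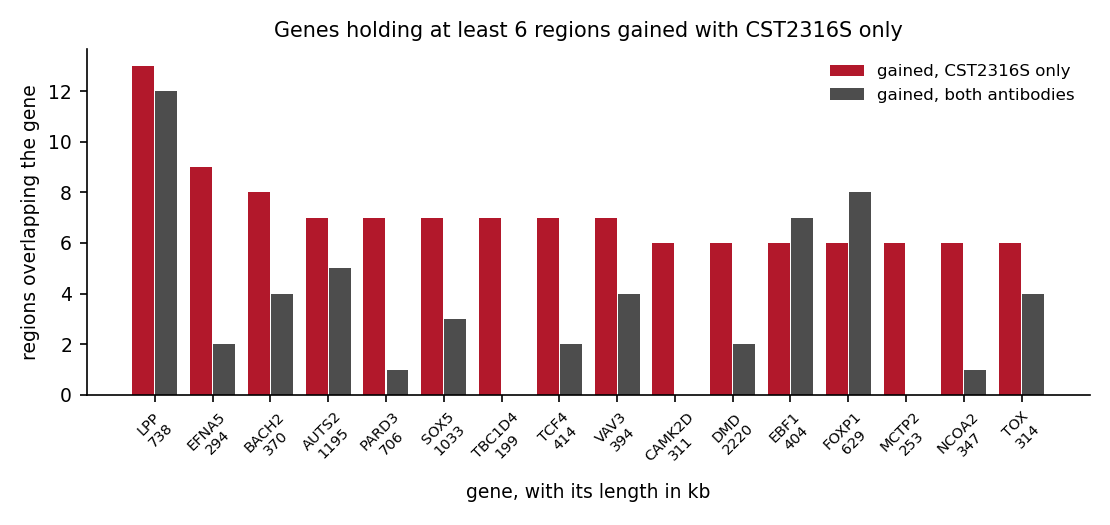
Number of gained regions (y axis) overlapping each gene that holds at least 6 CST2316S-only gains (x axis, with gene length in kb), beside the gains of both antibodies. LPP has the highest bar (13), and TBC1D4, CAMK2D and MCTP2 have no gain of both antibodies.

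In the second cell line the counts differed from gene to gene. For reading them, 8.65% of all 17265 regions had a peak in both treated and no DMSO list of KARPAS422. A further 18.8% of all regions had a peak in all 4 KARPAS422 lists, so a peak in both treated lists is more frequent than 8.65%. No KARPAS422 peak was present at 61.1% of all CST2316S-only gains and 50.7% of all regions. All 7 regions of TCF4 had a peak in KARPAS422, 6 of them in both treated lists, and 3 of them in both treated and no DMSO list. Of the 13 regions in LPP, 4 had a peak in both treated KARPAS422 lists (3 of them in no DMSO list) and 5 had none in any KARPAS422 list. BACH2 had 3 of 8, EBF1 3 of 6 and TOX 4 of 6 with a peak in both treated lists. Of these, 2, 2 and 1 had none in the DMSO lists. None of the 9 regions of EFNA5, the 7 each of AUTS2, PARD3, TBC1D4 and VAV3, or the 6 each of DMD and NCOA2 had a KARPAS422 peak. In the polymerase lists, 0 of the 13 LPP regions and 0 of the 7 TCF4 regions had a peak, and 3 of 8 in BACH2 and 3 of 9 in EFNA5 had 1.

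The best-ranked region lay in TANK (chr2:161233799-161234497), a gene for an adaptor of TRAF and NF-kB signalling. It was enriched 16.6-fold in treated replicate 1 and 14.9-fold in replicate 2, had a peak in 1 of 2 treated and 0 of 2 DMSO lists of KARPAS422 and none in the 21 polymerase lists, and the nearest treated ab239364 peak was 2760 bp away. The next 2 lay outside genes, at chr14:60561863-60562788 (9.42-fold and 10.04-fold) and chr2:213237691-213240021 (12.9-fold and 8.44-fold). The region in NELL2 (chr12:44850668-44853177), which encodes a secreted neural protein, was enriched 11.0-fold and 8.95-fold and had a peak in 2 of 2 treated and 0 of 2 DMSO lists of KARPAS422. Of the 10 best-ranked regions over 1 kb from a gene end, 6 lay outside genes, and the others lay in TANK, NELL2, RABGAP1L (a Rab GTPase-activating protein) and LPP. Of these 10, 3 had a peak in both treated and no DMSO list of KARPAS422, where 8.65% of all regions had 1, and 3 had a polymerase peak, each of them outside genes.

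At gene ends the best-ranked region (chr1:74197366-74198056, 11.0-fold and 7.54-fold) lay at neighbouring ends of FPGT, an enzyme of fucose salvage, and LRRIQ3. It had a peak in both treated and no DMSO list of KARPAS422, and in 1 of 2 Ser2P lists at 4 h as its only polymerase list. HLA-DQA1 (chr6:32636916-32637330, 9.37-fold and 12.8-fold), an antigen-presenting class II gene whose near-identical copies leave the placement of reads uncertain, had a peak in 1 treated and 1 DMSO list of KARPAS422. SF3B1 (chr2:197435262-197436133, 7.75-fold and 4.16-fold), a splicing factor, and UBA6 (chr4:67701352-67702175, 7.30-fold and 4.13-fold), a ubiquitin-activating enzyme, had KARPAS422 peaks in both treated and no DMSO list. Both also had Ser5P peaks in every one of the 6 Ser5P lists, DMSO included. The nearest treated ab239364 peak lay 213 bp from the SF3B1 region and 125041 bp from the UBA6 region.

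Of the 20 best-ranked regions at gene ends, 7 had a peak in both treated and no DMSO list of KARPAS422, namely those of FPGT, SF3B1, UBA6, VANGL2 (planar cell polarity), TMF1, PRND and TAGAP (a GTPase-activating protein of lymphocytes). The same held for 20 of all 83 regions at gene ends (24.1%), for 15.8% of the gains of both antibodies at gene ends and for 8.65% of all regions. Those of ACKR4 (a scavenging chemokine receptor), CARD6 and PCK2 (mitochondrial phosphoenolpyruvate carboxykinase) had a peak in all 4 KARPAS422 lists, DMSO included. Those of PDE4B, BHLHE41, YLPM1, PMAIP1, TBC1D4, CHST2 and LOC105377015 had none there. MS4A7 had 1, in a treated list. No peak of any polymerase list was present at ACKR4, PDE4B, VANGL2, HLA-DQA1, CARD6, BHLHE41, YLPM1, CHST2 and LOC105377015, while PCK2 had Ser5P peaks in all lists and Pol II peaks after treatment and in DMSO.

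The widest region, 5121 bp (chr5 at ERAP2, a peptide-trimming aminopeptidase), was enriched 3.77-fold and 2.498-fold. The next widest lay in RAB30, in TBL1XR1 (a subunit of the corepressor complex that BCL6 recruits), outside genes on chromosome 8 and in CUX1, and were 3847 to 4488 bp wide. All 5 had a peak in both treated KARPAS422 lists. Those of RAB30, TBL1XR1 and chromosome 8 had none in the DMSO lists there. Among all regions, 8.65% had a peak in both treated and no DMSO list of KARPAS422, and 18.8% in all 4 lists. Any overlap counts as presence, which a wide region meets more easily, so nothing is read from these 5.

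Genes of the BCL6 programme were examined as lists, whose members overlap between lists and were chosen with earlier results of these data known. No CST2316S-only gain lay in or within 1 kb of any of 29 BCL6 target genes. Of these genes, 11 had a gain of both antibodies, among them CDKN1A, CDKN1B, MYC and PRDM1. Over all 19974 coding genes, 626 (3.13%) had a CST2316S-only gain and 1135 (5.68%) a gain of both antibodies. At a share of 3.13%, a list of 29 genes or fewer can lack a CST2316S-only gain, so nothing is read from its absence. Also without a CST2316S-only gain were the 10 anti-apoptotic genes, of which 1 (CFLAR) had a gain of both antibodies, and the 13 plasma-cell genes, of which 4 had. Of 34 germinal-centre B-cell genes, 8 had a CST2316S-only gain (BACH2, EBF1, FOXO1, GNA13, IKZF1, IKZF3, MEF2C and MME), all of them inside the gene and none at its ends, and 17 had a gain of both antibodies. Except for MME, which encodes CD10, those 8 genes also had a gain of both antibodies. Of 24 BCL6 corepressor genes 3 had a CST2316S-only gain (HDAC1, HDAC9 and TBL1XR1), against 5 with a gain of both antibodies.

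Of 25 pro-apoptotic genes 4 had a CST2316S-only gain, at a gene end in PMAIP1 and BIK, both BH3-only killers, and inside the gene in BMF and FAS, and 8 had a gain of both antibodies. The PMAIP1 region (chr18:59904266-59904950) was enriched 7.72-fold and 5.20-fold, lay 1188 bp from a treated ab239364 peak and had no KARPAS422 peak. It overlapped no promoter window and lay 4269 bp from the nearest coding start. It had a Ser5P peak in 2 of 2 lists at 2 h, 1 of 2 at 4 h and 0 of 2 in DMSO, and a Ser2P peak in 1 of 2, 2 of 2 and 2 of 2. The BIK region was enriched 2.71-fold and 3.98-fold and had Ser2P and Ser5P peaks in every list, DMSO included. Of 24 cell-cycle arrest genes 2 had a CST2316S-only gain, BTG1 (an antiproliferative gene; 3.92-fold and 3.15-fold) and CDKN2C (the CDK4/6 inhibitor p18; 3.35-fold and 2.64-fold), against 5 with a gain of both antibodies. Of 29 immediate-early genes 1 had, KLF10 (5.22-fold and 3.00-fold). The PMAIP1, BIK, BTG1, CDKN2C and KLF10 regions all lacked a KARPAS422 peak. A gene end is either end of the gene. The BTG1 and CDKN2C regions lay 3724 and 3411 bp from the nearest coding start, and for BIK and KLF10 the end was not determined. Of 33 P-TEFb and elongation genes AFF1 and AFF4, scaffolds of the super elongation complex, had 1, as did TRAF1 of 22 NF-kB genes, CCND3 of 22 MYC and growth genes and FOXO1 of 16 FOXO genes. For reading these counts, 3.13% of all coding genes had a CST2316S-only gain, and 0.441% had 1 at a gene end. Except for PMAIP1, BTG1 and TRAF1, the genes named in this paragraph also had a gain of both antibodies.

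In KARPAS422, CDK9 peaks by the same antibody were present at more of these regions after the compound. A peak was present at 37.1% and 25.8% of the 1452 regions in the 2 treated lists, against 11.1% and 15.4% in the 2 DMSO lists. Over all 17265 regions the shares were 45.3% and 35.9% in the treated lists, against 24.3% and 29.2% in DMSO, so that the treated lists were higher there too. Both treated lists were above both DMSO lists, with means of 31.5% ± 7.99 against 13.2% ± 3.02 (SD, n = 2 lists each) and a difference of 18.3 points. The exact two-sided permutation test over the 4 lists gave p = 0.33, the smallest that 2 against 2 lists allow, and 0.67 after Benjamini-Hochberg adjustment over 14 tests. The treated lists were also the longer ones, with 14554 and 10297 peaks, against 6689 and 7804 in DMSO, and with the same number of best peaks from each list the difference was 8.64 points. The gains of both antibodies moved likewise, at 68.0% and 59.1% of regions in treated lists, against 37.6% and 43.02% in DMSO lists. The share of CST2316S-only gains minus that of both antibodies differed by -5.03 points between treated and DMSO lists (p = 0.33, exact permutation test over n = 2 lists each).

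Counted by region, 178 CST2316S-only gains (12.3%) had a peak in both treated and no DMSO list of KARPAS422, against 8.65% of all 17265 regions and 14.5% of the gains of both antibodies. The reverse, both DMSO and no treated list, held for 5 (0.344%; all regions 0.573%). A peak in all 4 lists was present at 115 (7.92%; all regions 18.8%) and no peak at 887 (61.1%; all regions 50.7%). The KARPAS422 gain was present at 20 of the 83 regions at gene ends (24.1%), at 13.4% of those inside genes and at 7.74% of those outside. For the gains of both antibodies these shares were 15.8%, 13.1% and 15.4%. By rank the share of CST2316S-only gains was 20.6%, 13.1%, 9.85% and 9.95% in the 4 bands given above, against 15.5%, 10.3%, 11.8% and 9.30% for the gains of both antibodies. Where a treated KARPAS422 list had a peak, its summit lay at a median of 133 bp (539 regions) and 112 bp (375 regions) from the SUDHL5 summits.

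Initiated polymerase was present at few of these regions in any condition. Ser5P peaks were present at 12.6% and 8.33% of them after 2 h and at 7.44% and 8.47% after 4 h, against 15.1% and 6.96% in DMSO. The DMSO lists lay on either side of the treated ones, and differences of -0.551 points at 2 h and -3.06 points at 4 h had p = 1 (exact permutation test, n = 2 lists each). The 2 h difference turned to 0.535 points when only peaks with a -log10 q of at least 5 were read, and the 4 h difference to 0.999 points without DMSO replicate 1. At the gains of both antibodies Ser5P peaks were present at 67.0% and 57.4% after 2 h and 52.5% and 58.3% after 4 h, against 59.4% and 46.1% in DMSO. The share of CST2316S-only gains minus that of both antibodies differed from DMSO by -10.01 points at 2 h and by -5.72 points at 4 h, the groups did not overlap, and p was 0.33 in both exact tests. The 4 h value was -3.38 points without treated replicate 2, -3.16 without DMSO replicate 2 and -3.19 with 50% cover. By region, 17 (1.17%; all regions 2.73%) had Ser5P in both 2 h lists and no DMSO list and 18 (1.24%; all regions 0.707%) the reverse. At 4 h these counts were 8 (0.551%; all regions 1.47%) and 22 (1.52%; all regions 1.26%). The 2 h and 4 h comparisons share the DMSO lists, and for 2 h time and treatment cannot be told apart.

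Ser2P peaks were present at 0.964% and 4.89% of the regions after 2 h and at 5.17% and 4.96% after 4 h, against 7.92% and 5.72% in DMSO. Among all regions the shares were 16.6% and 36.8% after 2 h and 35.7% and 35.2% after 4 h. They were 36.8% and 29.8% in DMSO, so that the groups overlapped there. At the CST2316S-only gains all 4 treated lists were below both DMSO lists. The differences were -3.89 points at 2 h and -1.76 points at 4 h, with p = 0.33 for each (exact permutation test, n = 2 lists each, 0.67 after adjustment). List length moved with them, at 6519 and 16170 peaks after 2 h and 16323 and 13657 after 4 h, against 28951 and 16593 in DMSO. With the same number of best peaks from each list the difference was -0.792 points at 2 h and 0.448 points at 4 h, where it turned sign. With 50% cover it was -0.620 and -0.103 points. At 2 h it was -1.93 points without treated replicate 1 and -5.85 without treated replicate 2, and at 4 h -0.654 without DMSO replicate 1 and -2.86 without DMSO replicate 2. At the gains of both antibodies the shares were 17.8% and 40.8%, then 39.5% and 39.6%, against 38.7% and 31.0% in DMSO. Relative to them, the share at CST2316S-only gains differed from DMSO by 1.65 points at 2 h (p = 1, exact permutation test) and by -6.44 points at 4 h (p = 0.33). The 2 h value turned to -4.76 points with equal list lengths, -7.90 without treated replicate 1 and -1.09 without DMSO replicate 1. The 4 h value was -3.69 points without DMSO replicate 2 and -3.60 with 50% cover. By region, 0 (all regions 0.232%) had Ser2P in both 2 h lists and no DMSO list and 22 (1.52%; all regions 1.77%) the reverse, and at 4 h the counts were 10 (0.689%; all regions 1.71%) and 14 (0.964%; all regions 1.11%).

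Total Pol II was nearly absent. Its peaks were present at 0.138%, 0.620% and 0.551% of the regions after 2 h and at 0%, 0.413% and 0.138% after 4 h, against 0.138%, 0.413% and 0.138% in DMSO, which is at most 9 regions in any list. Differences of 0.207 points at 2 h and -0.0459 points at 4 h had p = 0.4 and p = 1 (exact permutation test, n = 3 lists each, smallest possible p 0.1). These lists were short, the shortest with 138 peaks, so that Pol II below their detection is not told from none. At the gains of both antibodies the shares were 5.11%, 18.2% and 9.92% after 2 h, against 2.18%, 12.9% and 6.93% in DMSO. Pol II peaks were few among all regions too, at 5.64%, 17.4% and 10.4% after 2 h. The shares there were 0.718%, 13.9% and 7.19% after 4 h, against 3.42%, 13.6% and 9.03% in DMSO.

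**Figure D5:**
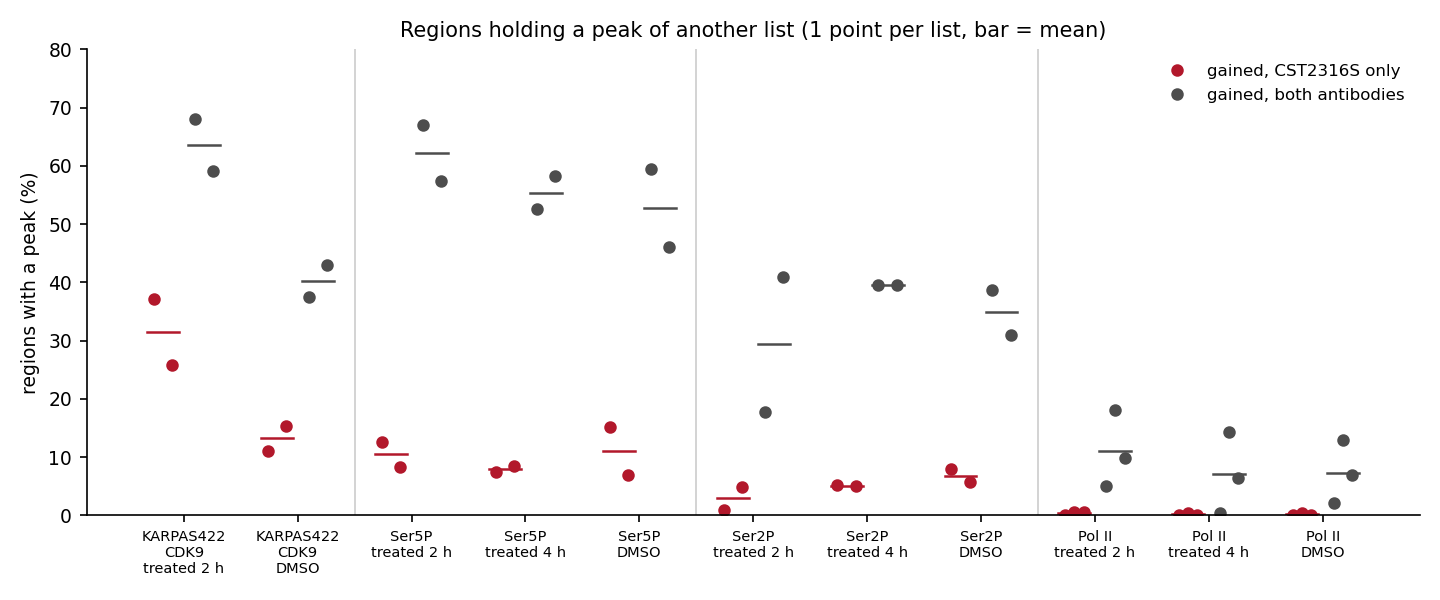
Share of regions with a peak (y axis, percent) in each KARPAS422 CDK9 list and each SUDHL5 polymerase list (x axis; polymerase DMSO lists are of 4 h, KARPAS422 DMSO lists of 2 h), for CST2316S-only gains and gains of both antibodies; each point is a list and each bar a mean. The CST2316S-only point is the lower in 25 of 25 lists, and the treated KARPAS422 lists (37.1% and 25.8%) stand above their DMSO lists (11.1% and 15.4%).

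Over all polymerase lists, 1047 of the 1452 regions (72.1%) had no peak in any, against 41.2% of all regions, 20.7% of the gains of both antibodies and 5.54% of the ab239364-only gains. A peak in some treated polymerase list and in no DMSO list was present at 106 (7.30%; all regions 7.66%). Polymerase peaks were present at 51 of the 83 regions at gene ends (61.4%), at 27.7% of those inside genes and at 22.1% of those outside, against 96.0%, 73.7% and 73.3% of the gains of both antibodies. The difference between the sets was thus present in each place. By rank the shares were 24.8%, 25.2%, 28.9% and 32.7% in the 4 bands, against 77.0%, 77.6%, 88.2% and 95.3%. A KARPAS422 CDK9 peak with no polymerase peak was present at 350 CST2316S-only gains (24.1%; all regions 10.4%; both antibodies 11.3%). This joint share depends on how many regions lack a polymerase peak, and is no measure of KARPAS422 peaks alone. Among regions without a polymerase peak, a KARPAS422 peak was present at 350 of 1047 CST2316S-only gains. It was present at 224 of 409 gains of both antibodies and at 1804 of 7105 among all regions.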

How the data were processed

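Peak lists of 33 ChIP-seq samples were analysed; the other 10 samples are inputs, for which no list was used. Per the submitters' processing notes, the tools were MACS2, Bowtie2, Picard, SAMtools, bedtools, deepTools, Trim Galore and FastQC, with the builds hg38 and dm6. Not given in the sources used here were versions, control libraries and any blacklist. In titles the antibody is CST2316S, while the labels' protocol orders its digits differently. Where file names put the CDK9 DMSO samples at 0 h, the 2 h of the labels was used. Per the labels, Drosophila chromatin was added to CDK9 samples; nothing scaled to it was used.

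The deposited fold enrichment of each peak is the authors' ratio over background and is comparable only inside 1 list. The deposited -log10 q of each peak served only to rank or filter peaks, and the -log10 p, also the authors', was not needed. Read depth is unknown. Of 286536 peaks, 25 on unplaced contigs were left out.

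Peaks of the 8 SUDHL5 CDK9 lists were merged at an overlap of 1 bp, and any overlapping peak counted as presence. Gene positions and promoter sequences are RefSeq's (GRCh38.p14). Gene ends are 1 kb either side of either end, since the gene table gives no strand. Shares of regions were compared over lists by exact two-sided permutation tests on mean differences, with Benjamini-Hochberg adjustment over 14 tests. Python 3.11.15, NumPy 2.4.6, pandas 2.3.3, SciPy 1.17.1 and matplotlib 3.10.9 were used. The code of the selection rule was checked on simulated lists with planted regions, which says nothing about the rule itself. Regions named are the 20 best-ranked at gene ends, the 10 best-ranked elsewhere, the 5 widest and those at gene ends of 12 gene lists (252 genes). Genes holding at least 6 regions, and the other genes named inside lists, were named after their values were seen. The regions, lists and tests were chosen with earlier results of these data known. Alternatives were a -log10 q of at least 5, equal list lengths, 50% cover, summit windows, a 2.5 kb gene window, leaving out each list and a replicate block. Sequences of regions outside promoter windows were not analysed here, and the values of 1 of the 20 best-ranked regions at gene ends are not reported here.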

Additional observations from a re-analysis of the deposited data

How the results depend on the processing

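The number of regions that meet the rule was 1215 with a -log10 q of at least 5 and 1209 without an ab239364 peak within 1 kb, but 2448 when peaks had to cover 50% of a region, 156 with the 915 best peaks of every list, and between 1452 and 3517 leaving out each list in turn. It was 3406 and 3517 without treated CST2316S replicate 1 and 2, and 2898 without treated ab239364 replicate 2. The share at gene ends was 7.76% with 50% cover, 7.90% with summit windows, 13.5% with equal list lengths, 10.2% with a 2.5 kb window and between 5.52% and 8.32% leaving out each list. The KARPAS422 difference stayed positive, between 12.6 and 23.9 points leaving out each list. For Ser5P at 2 h the difference was 0.535 points with a -log10 q of at least 5, 0.275 with 50% cover and 0.344 with windows of 250 bp either side of the summits (chosen after seeing the data), and between -4.61 and 3.51 leaving out each list. At 4 h it was between -7.13 and 0.999, above 0 without DMSO replicate 1. For Pol II at 4 h it was between -0.161 and 0.0459. With equal list lengths Ser2P at 4 h differed by 0.448 points, and Pol II by -0.0230 at 2 h and 0 at 4 h. Relative to the gains of both antibodies, Ser2P at 2 h was -4.76 with equal list lengths and between -7.90 and 11.2 leaving out each list, and Pol II at 4 h was -0.313 with a -log10 q of at least 5, -0.187 with 50% cover, -0.118 with equal list lengths and between -3.01 and 3.77 leaving out each list. The cause of these turns was not tested. Whether equal replicate numbers pair the samples is unknown. Same-numbered lists of a comparison had correlations of deviations between -0.040 and 0.133, which cannot decide it, since weak correlation does not exclude a shared culture. With the replicate block the KARPAS422 difference was 18.3 points with p = 0.5 (exact sign-flip test, n = 2 pairs), and the smallest p of 14 blocked results was 0.25. Where read depth is unknown, a region without a peak may lie below a list's detection.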

Other observations

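Some B-cell genes outside the fixed lists had a CST2316S-only gain at a gene end, and these were picked after their values were seen. They stand for no list: of the 34 fixed germinal-centre B-cell genes 0 had 1 at a gene end, against 88 of 19974 coding genes (0.441%). FCRL4 (3.62-fold and 3.10-fold) and FCRL5 (3.58-fold and 2.90-fold), neighbouring Fc receptor-like genes of chromosome 1, had no KARPAS422 peak and no Ser2P or Ser5P peak. BTK, the kinase of B-cell receptor signalling, had 2.99-fold and 3.77-fold enrichment and a peak in 2 of 2 treated and 0 of 2 DMSO lists of KARPAS422. ST6GAL1, a sialyltransferase, had 3.73-fold and 2.96-fold enrichment and the same KARPAS422 pattern. RGS1 (3.499-fold and 2.97-fold), a regulator of G-protein signalling, and CD72 (3.02-fold and 2.43-fold), an inhibitory receptor of B cells, had Ser2P and Ser5P peaks in every list, DMSO included, and no KARPAS422 peak.

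Inside the germinal-centre genes the best-ranked region was in EBF1 (chr5:158752273-158754926, 7.59-fold and 9.38-fold), with a peak in 1 of 2 treated and 0 of 2 DMSO lists of KARPAS422 and no polymerase peak.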
